A study of Homo sapiens with 6 samples.

Results

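The transcriptome described here is that of RBE cells without a knockdown. RBE is an established human cell line from a cholangiocarcinoma that arose in the bile ducts within the liver. Of the 6 libraries in the series, the 3 that carry the si-Ctrl label were taken, and the 3 from cells given siRNA against CHAF1A were left out. The study behind them concerns NAT10, an enzyme that acetylates cytidine in RNA, and its link to chromatin and transposable elements. The si-Ctrl cells were grown in DMEM with serum and transfected with a control siRNA and Lipofectamine 3000 when cells covered about 60% of the well. They received fresh medium after 24 h and were harvested at 48 h, so they are transfected cells of 1 line and not untreated ones. The labels give neither the sequence of the control siRNA nor how the 3 samples, which the design text calls biological replicates, were made separately. The spread between them may therefore be technical. There is 1 group and no comparison between groups, so no p-value is given anywhere.

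Bile ducts are lined by cholangiocytes, epithelial cells that share an embryonic precursor with hepatocytes. Cholangiocytes are known by simple-epithelium keratins, by the transcription factor SOX9, and by channels and exchangers that add chloride and bicarbonate to bile. Hepatocytes make albumin, apolipoproteins and clotting factors. Cholangiocarcinomas inside the liver are divided by pathologists into a large-duct form with mucins and gastric-type secreted proteins and a small-duct form that keeps features of the fine bile ductules.

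Values are CPM, the deposited read count of a gene scaled to a library total of 1000000 counts. The 3 libraries held 15643381, 20918997 and 17479039 counts, so that 3 counts corresponded to 0.192, 0.143 and 0.172 CPM. A gene is called detected when it reached 1 CPM in all 3 libraries. Of 63186 genes, 13429 were detected and 31948 had no count. Among the 19830 protein-coding genes, 11854 were detected (59.8%) and 3630 had no count in any library (18.3%). Both shares are the background against which the gene lists below are read. Values stand in the order si-Ctrl 1, 2 and 3, and means are given with the SD over n = 3 libraries. The library of si-Ctrl 2 stood apart from the other two, and its difference moved with GC content, by an amount given at the end.

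The label was checked first. KRT7, a keratin of bile duct epithelium, gave 891, 1048 and 883 CPM, and KRT19, which marks the same cells, gave 657, 761 and 684 CPM. SOX9, a transcription factor of biliary precursors, gave 69.6, 65.1 and 67.5 CPM, and EPCAM, an adhesion molecule of epithelia, gave 58.9, 52.9 and 62.1 CPM. All 4 were above 50 CPM in every library, and the 3 libraries lay close together for each. The means were 941 ± 93.0, 701 ± 54.1, 67.4 ± 2.22 and 58.0 ± 4.65 CPM (SD, n = 3). These genes lie, in GRCh38 coordinates, at chr12:52232520-52252186, chr17:41523617-41528308, chr17:72121020-72126420 and chr2:47345158-47387601. Per kilobase of merged exons, which allows levels of different genes to be compared, KRT19 stood at 299.9, KRT7 at 229.8, EPCAM at 23.0 and SOX9 at 17.1 CPM. Dividing by the longest annotated transcript put KRT7 (536 CPM per kb) above KRT19 (504), so the order within this pair is not settled.

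**Figure D1:**
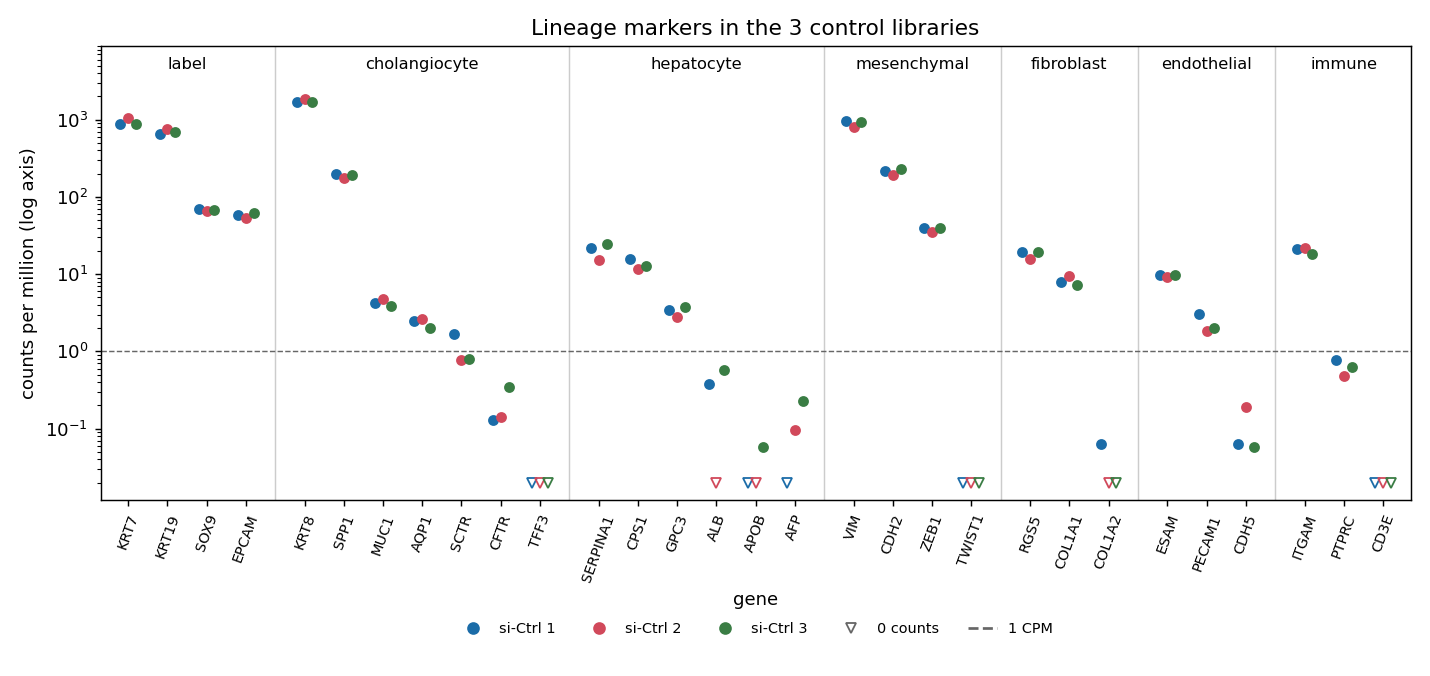
Level of 30 lineage markers in the 3 control libraries, in CPM on a log axis. Each point is 1 library, open triangles at the bottom stand for 0 counts, and the dashed line is 1 CPM. The 4 label markers, KRT8, SPP1, VIM and CDH2 lie above 50 CPM in all libraries, while ALB, APOB, COL1A2, CDH5 and PTPRC stay below 1 CPM.

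Of the wider list of cholangiocyte markers, 24 of 30 were detected (80.0%, against 59.8% of all protein-coding genes). KRT8 gave 1691, 1843 and 1712 CPM and KRT18, its partner in the filaments of simple epithelia, gave 742, 751 and 740.5 CPM. ITGB4, the integrin chain of hemidesmosomes, averaged 423 ± 56.0 CPM, SLC4A2, the anion exchanger through which bile ducts secrete bicarbonate, 419.9 ± 40.2 CPM, and CLDN4, a tight-junction claudin, 242 ± 22.7 CPM. SPP1 (osteopontin), a secreted matrix protein, averaged 190.3 ± 11.1 CPM. PKHD1, the gene of recessive polycystic kidney and liver disease, averaged 60.9 CPM and was named after its value was seen. Low members included a pair of genes of the response to secretin, the hormone that makes ducts secrete. CFTR, the chloride channel it opens, had 2, 3 and 6 counts, and SCTR, the secretin receptor itself, 1.66, 0.765 and 0.801 CPM. TFF3, a trefoil peptide of mucous cells, had 0 counts in all 3 libraries, which allows at most 0.0555 CPM at a limit of 3 counts over the 54041417 counts of the 3 libraries. The water channel AQP1 reached 2.49, 2.63 and 2.00 CPM. The other 3 markers that were not detected were PROM1 (0.277 CPM), CLDN10 (0.632 CPM) and the glucose carrier SLC5A1 (0.0191 CPM).

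Membrane transport was partly represented. In the list of bile duct transport and ion genes, 15 of 27 were detected (55.6%, close to the background). ITPR3, the calcium release channel that stands under the apical membrane of cholangiocytes, gave 481, 556 and 462 CPM. The basolateral exporter ABCC3 gave 245, 255 and 238 CPM and its relative ABCC4 239.7, 194 and 233 CPM. ABCC2, the canalicular exporter of conjugated bilirubin, averaged 110.1 ± 4.72 CPM and the drug pump ABCB1 41.8 ± 2.54 CPM. Several genes of bile acid transport and sensing were low. SLC10A2, which takes bile acids back from the duct, averaged 0.126 CPM, the hepatocyte carriers SLC10A1 0.0639 and ABCB11 0.0319 CPM, and the bile acid receptor GPBAR1 0.185 CPM. None of these 4 was detected, although each had at least 1 count. Of other bile acid carriers in the list, SLC51A was detected at 1.09, 1.39 and 1.72 CPM, and SLC51B averaged 0.686 CPM.

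**Figure D2:**
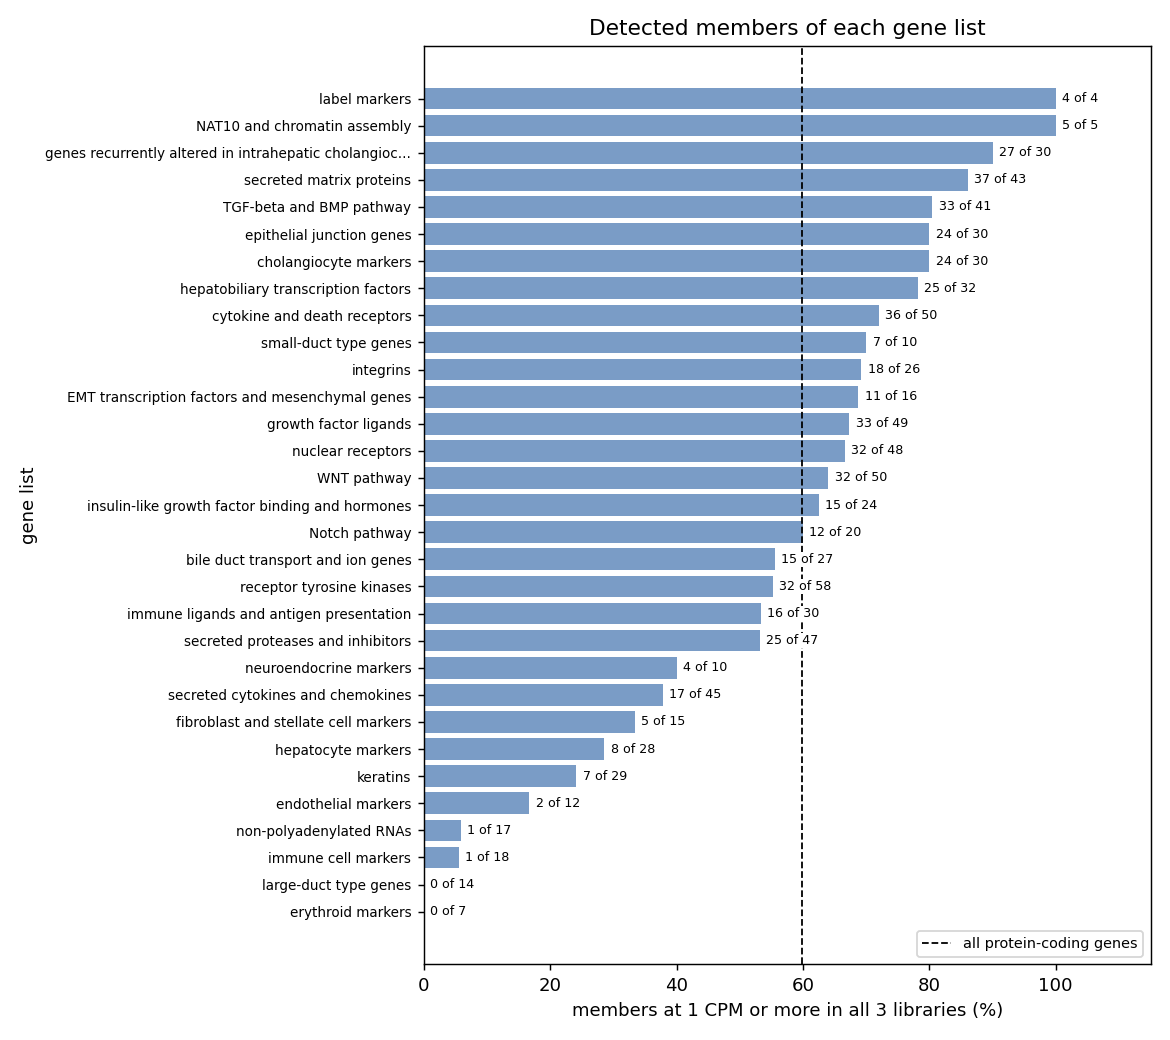
Share of each gene list that reached 1 CPM in all 3 libraries, in percent, with the number of members beside each bar. The dashed line is the 59.8% of all protein-coding genes. Lists of blood and vessel cells, keratins and large-duct genes lie at or below 24.1%, while those of secreted matrix, junctions and cholangiocyte markers lie at 80.0% or above.

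The most abundant transcripts came from mitochondria. The 37 genes of the mitochondrial genome took 12.2%, 13.7% and 12% of counts (mean 12.6 ± 0.949%, SD, n = 3), highest in si-Ctrl 2. MT-RNR2, the large ribosomal RNA of the mitochondrion, led with 25449, 27199.6 and 25049 CPM, ahead of MT-CO1, a subunit of cytochrome oxidase, with 21971, 22274 and 21283 CPM, and MT-ND4, a subunit of complex I, with 19598, 23749 and 18765 CPM. The other mitochondrial genes among the 25 most abundant were MT-CO2, MT-CO3, MT-CYB, MT-ATP6, MT-ND2, MT-ND1, MT-ND5 and MT-ND4L, between 2827 and 9396 CPM. The 10 most abundant genes of all kinds held 12.4 ± 0.861% of counts and the 100 most abundant 26.3 ± 1.25%. MT-ATP8, whose frame overlaps that of MT-ATP6, was the least even of the mitochondrial mRNAs, at 86.3, 350.1 and 119 CPM, with si-Ctrl 2 far above the other two. It was singled out after its value was seen.

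Among nuclear genes, the head of the ranking held translation, cytoskeleton, chaperones and sugar and fat metabolism. EEF1A1, the elongation factor that brings aminoacyl-tRNA to the ribosome, gave 11797, 11413 and 11598 CPM, more than any other nuclear gene. The filamin FLNA gave 4917, 5992 and 4845 CPM, the actin ACTG1 3577, 3870.3 and 3603 CPM, and the actin ACTB 3168, 3345 and 3235 CPM. FLNA was higher in si-Ctrl 2 than in the other two, whereas EEF1A1 and the actins differed little. The chaperones HSP90AA1 and HSP90AB1 averaged 2903 ± 107 and 2525 ± 50.9 CPM. The glycolytic enzymes GAPDH, PKM and LDHA averaged 2868 ± 71.4, 2406 ± 167 and 2027 ± 42.3 CPM. SCD, which places the double bond in newly made fatty acids, gave 2696, 2403 and 2755 CPM, lowest in si-Ctrl 2. AHNAK, PLEC, MYH9 and ITGA3, which tie the cytoskeleton to membrane and matrix, lay between 2202 and 2489.9 CPM. EEF2, the translocation factor of the ribosome, averaged 2622 ± 224 CPM.

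Long transcripts collect more reads, and per kilobase of merged exons the head of the list changed. EEF1A1 stayed at the head of the nuclear protein-coding genes with 1951 ± 32.3 CPM per kb. FTL, the ferritin light chain, followed at 1613 ± 131, TMSB10, an actin-binding peptide, at 1472 ± 208, ACTG1 at 1231 ± 54.3 and GAPDH at 962 ± 24.0 CPM per kb. The SDs of FTL and TMSB10 overlap. Dividing by the longest transcript instead put ACTG1 (1633 CPM per kb) just above FTL (1613), and 20 of the 25 highest genes were shared by the 2 ways of measuring length. Among the 25 by merged exons were 9 cytosolic ribosomal proteins, from RPS12 (811) to RPL19 (468 CPM per kb). Others were LGALS1, a galactose-binding lectin (513 CPM per kb), S100A6, a calcium-binding protein of the S100 family (472), YBX1, an RNA-binding cold-shock protein (591), and TUBB4B, a beta-tubulin (457).

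Some of these abundant genes share a sequence feature at their start. Many transcripts of the translation machinery begin with a C followed by an unbroken stretch of pyrimidines, the 5′ terminal oligopyrimidine (TOP) run through which growth signals act on their translation. The windows shown reach from 60 bases before to 20 bases after the annotated start, as RefSeq gives them on GRCh38.p14, written 5′ to 3′ on the transcript strand. Capitals mark a C followed by at least 4 letters that are each C or T at the start, and TATAAA in the 50 bases before it. EEF1A1, EEF2, RPLP0 and RPL7A are shown as abundant genes with the run, GAPDH as an abundant gene without it, and SPP1 and ALB as a biliary and a hepatocyte marker. They lie at chr6:73521013-73521092 (minus strand), chr19:3985444-3985523 (minus), chr12:120201092-120201171 (minus), chr9:133348158-133348237 (plus), chr12:6535204-6535283 (plus), chr4:87975654-87975733 (plus) and chr4:73404227-73404306 (plus).
EEF1A1: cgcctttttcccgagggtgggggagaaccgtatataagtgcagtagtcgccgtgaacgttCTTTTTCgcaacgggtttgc
EEF2: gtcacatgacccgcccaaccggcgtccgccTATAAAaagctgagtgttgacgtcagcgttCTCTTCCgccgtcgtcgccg
RPLP0: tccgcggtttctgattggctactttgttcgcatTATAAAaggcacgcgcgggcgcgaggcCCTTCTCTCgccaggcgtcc
RPL7A: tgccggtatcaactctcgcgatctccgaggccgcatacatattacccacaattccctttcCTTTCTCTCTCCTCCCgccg
GAPDH: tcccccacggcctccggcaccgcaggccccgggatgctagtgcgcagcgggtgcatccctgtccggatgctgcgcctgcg
SPP1: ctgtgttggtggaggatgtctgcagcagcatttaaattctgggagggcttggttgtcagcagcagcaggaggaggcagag
ALB: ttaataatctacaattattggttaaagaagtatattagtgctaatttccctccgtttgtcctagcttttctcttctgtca
EEF1A1 has a run of 7 bases, EEF2 7, RPLP0 9 and RPL7A 16, and EEF2 and RPLP0 carry TATAAA as well. The other 3 windows hold neither.

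Over all promoters that could be matched by symbol, 11310 of 19817 nuclear protein-coding genes, the run was present in 4.67%. Its share was 3.35% in genes not detected, 4.09% from 1 to 10 CPM, 4.64% from 10 to 100, 10.3% from 100 to 1000 and 28.1% (9 of 32) from 1000 CPM. Of the cytosolic ribosomal protein genes with a promoter, 42 of 58 had it. Without them the share from 1000 CPM was 4 of 24, and from 100 to 1000 CPM 7.94%. TATAAA on the transcript strand, sought only in the 50 bases before the start and so never overlapping the run, was in 4.77% of all promoters. It was in 9.50% of genes not detected, in 1.33% from 10 to 100 CPM and in 4 of 32 from 1000 CPM, so that both ends of the scale held more than the middle. The last class is small.

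The median CpG content was lower in the genes not detected than in the rest, with wide overlap. CpG observed over expected is the number of CG pairs in the 300 bases around the start, divided by the number that the C and G content would give. Its median was 0.277 in genes with no count, 0.360 in all genes not detected, 0.792 from 1 to 10 CPM, 0.876 from 10 to 100, 0.898 from 100 to 1000 and 0.921 from 1000 CPM. The largest step between medians was that from genes not detected to 1 to 10 CPM. The middle 50% of these classes overlapped, at 0.174 to 0.732 and 0.587 to 0.905, and those above 10 CPM did so more. Among the genes shown above, the value over 300 bases was 1.36 for EEF2, 0.761 for GAPDH, 0.481 for ALB and 0.369 for SPP1, which was low in CpG although its RNA averaged 190.3 CPM. Promoter DNA is the reference, and neither methylation nor start site use was measured here.

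**Figure D3:**
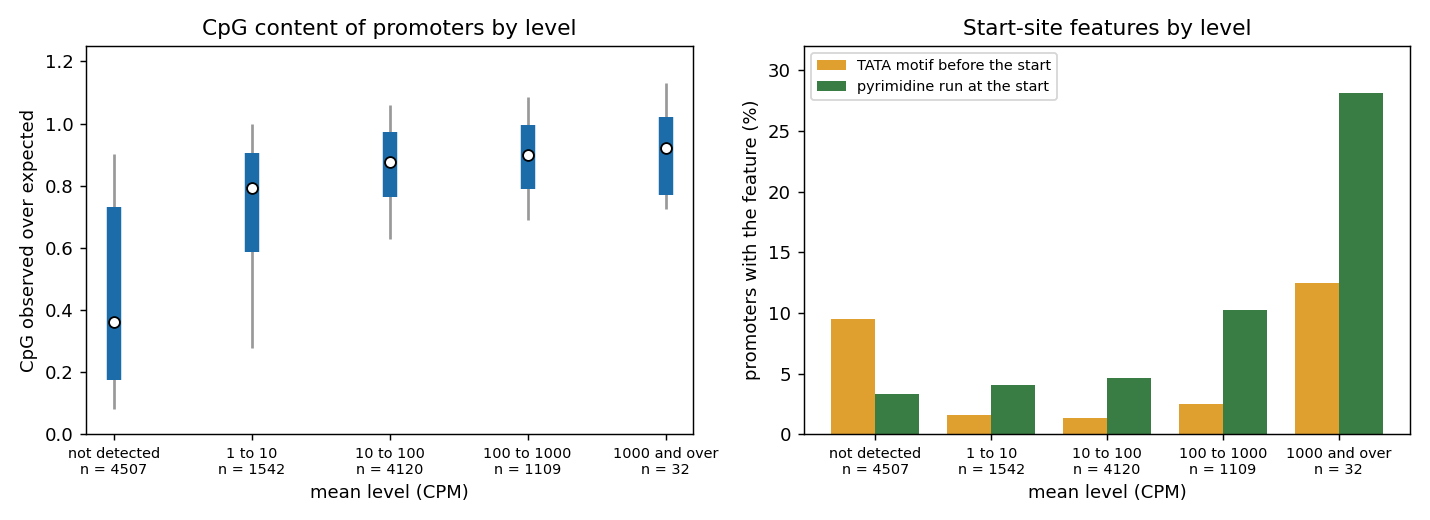
Promoter features by the mean CPM of their genes, for 11310 protein-coding genes. On the left, points are medians of CpG observed over expected, thick bars the middle 50% and thin lines the 10th to 90th percentile. On the right, bars give the percent of promoters with the TATA motif or the pyrimidine run. The median CpG content is lowest in the genes not detected, whose range overlaps the others, and the pyrimidine run is most frequent from 1000 CPM, a class of 32 genes.

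Few keratins carried nearly all of the keratin counts. Of 29 keratins in the list, 7 were detected, and the keratin family as a whole took 0.467 ± 0.0252% of counts. Next to the simple-epithelium keratins stood KRT80 with 452, 473 and 458 CPM. KRT10 averaged 41.7 ± 7.18 and KRT15 17.0 ± 0.390 CPM. The keratins of stratified epithelium were near 0, with KRT5 at 0.166 CPM, KRT14 at 0.0191 CPM and KRT17 at 0.0319 CPM, and KRT20, a keratin of intestinal epithelium, had 0 counts. After KRT15 the next keratin of the list was KRT16 (0.602 CPM), and outside it the hair keratin KRT81 averaged 7.32 CPM.

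Among junction genes, those of desmosomes and several claudins were high and E-cadherin was lower. In the junction list 24 of 30 were detected (80.0%, against 59.8% of all protein-coding genes). The desmosomal cadherin DSG2 gave 402, 342 and 409 CPM, desmoplakin (DSP) 279, 300.4 and 289 CPM and beta-catenin (CTNNB1) 312, 318 and 332 CPM. CLDN1 averaged 295 ± 12.1 CPM and CLDN2, the claudin that forms cation pores, 284 ± 4.75 CPM. Of the claudin family 7 of 24 were detected, and CLDN3 (0.285 CPM) and CLDN7 (0.707 CPM) were not. CDH1, the E-cadherin of adherens junctions, gave 28.3, 25.4 and 33.5 CPM, against 218, 194 and 226 CPM for CDH2, the N-cadherin. Per kilobase, CDH2 stood at 42.9 CPM and CDH1 at 4.71 CPM, in the same order by the longest transcript. The zonula occludens gene TJP1 ranged from 7.79 CPM in si-Ctrl 2 to 13.4 CPM in si-Ctrl 1, which was more spread than in most genes of its level.

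Mesenchymal genes stood beside the epithelial ones. Vimentin (VIM), the intermediate filament of mesenchyme, gave 952, 805 and 946 CPM. Fibronectin (FN1) averaged 117 ± 1.85 and S100A4 33.5 ± 2.86 CPM. Of the transcription factors that repress epithelial genes, ZEB1 gave 40.0, 34.9 and 39.4 CPM, and SNAI2 averaged 7.12 ± 0.297 CPM. SNAI1 was at 0.196 CPM and TWIST1 had 0 counts. In all, 11 of 16 genes of the list were detected (68.8%). In so short a list this share is close to the background of 59.8%. These are bulk libraries, in which a few cells with much RNA of a gene and many cells with little cannot be told apart.

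Fibroblast markers, by contrast, were mostly low, with 5 of 15 detected and 5 with no count. RGS5, a regulator of G proteins found in pericytes, led with 19.2, 15.8 and 19.6 CPM. COL1A1 averaged 8.23 ± 1.14 CPM, but COL1A2, the other chain of type I collagen, had 1, 0 and 0 counts. LRAT averaged 7.61 and ACTA2 6.06 CPM. LUM, DCN, POSTN and FAP, defining genes of fibroblasts, had 0 counts. The summed level of the 15 genes was 44.1 ± 2.34 CPM.

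Hepatocyte genes were low. Of 28 markers, 8 were detected (28.6%), and the summed level of the 28 was 53.2 ± 7.98 CPM, against 6409 ± 306 CPM for the cholangiocyte list. Most of the latter sum came from the keratins KRT8 (1749 CPM), KRT7 (941), KRT18 (744) and KRT19 (701). The median member averaged 0.240 CPM in the hepatocyte list and 59.4 CPM in the cholangiocyte list. SERPINA1 (alpha-1-antitrypsin) gave 22.1, 15.2 and 24.8 CPM and CPS1, the first enzyme of the urea cycle, 15.7, 11.7 and 12.8 CPM. GPC3, APOH, FGA and FGB lay between 2.23 and 3.31 CPM. Albumin (ALB) had 6, 0 and 10 counts and AFP, the fetal albumin, 0, 2 and 4 counts. APOB, APOA1, TTR and HP averaged below 0.05 CPM, and G6PC1 and F2 had 0 counts.

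Genes that separate the 2 histological forms of intrahepatic cholangiocarcinoma were unevenly represented. None of the 14 large-duct genes was detected (0 of 14). MUC5AC, a gastric mucin, was the highest with 1.21, 2.01 and 0.229 CPM, PSCA followed with 1.21, 0.908 and 0.915 CPM, and AGR2, MUC6, TFF1 and TFF2 had 0 counts. The 0 of 14 rests on si-Ctrl 3, since without that library MUC5AC passed and 1 member was detected, and at a threshold of 0.5 CPM it was 2. Without si-Ctrl 2 the mean of MUC5AC fell from 1.15 to 0.722 CPM. Of the 10 small-duct genes, 7 were detected, led by CDH2, SPP1 and ANXA4 (an annexin, 191, 183 and 190.5 CPM). In so short a list this share is close to the background of 59.8% of all protein-coding genes. Whether the cells belong to either form was not tested. BICC1, an RNA-binding protein of ciliated epithelia, gave 164, 137 and 163 CPM and NCAM1, which is seen on reactive ductules, 26.5, 26.2 and 27.5 CPM. FXYD2 averaged 14.8 ± 1.36 and DCDC2 6.99 ± 1.30 CPM. The 3 members not detected were ALB, CRP and C9, which hepatocytes secrete. Of the mucin family 4 of 17 were detected, MUC13 the highest at 13.8 CPM.

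Markers of blood and vessel cells were mostly low, and those of neuroendocrine cells were mixed. Of 18 immune markers only ITGAM, an integrin chain of myeloid cells, was detected, with 21.2, 22.1 and 18.5 CPM. The pan-leukocyte gene PTPRC averaged 0.625 CPM, the myeloid genes CD14 0.110 and CD163 0.142 CPM, and CD3D, CD3E, CD2, MS4A1 and TYROBP had 0 counts. The summed level of the list was 23.0 ± 1.96 CPM, nearly all of it ITGAM. The integrins ITGB2 and ITGAX, its usual partner and a relative, averaged 13.6 and 26.5 CPM and were named after their values were seen. Of 12 endothelial markers, ESAM (9.59 ± 0.396 CPM) and PECAM1 (2.31 ± 0.659 CPM) were detected, while CDH5, KDR and ERG stayed at or below 0.104 CPM. None of the 7 erythroid markers was detected, and the 4 alpha- and gamma-globin genes had 0 counts. In the neuroendocrine list 4 of 10 were detected, with ENO2, an enolase, at 118, 138 and 118 CPM, the adhesion molecule NCAM1 at 26.7 ± 0.688 CPM, the granin CHGB at 2.73 ± 0.248 CPM and SNAP25, a protein of vesicle release, at 1.71 ± 0.555 CPM. CHGA and INSM1 stayed below 0.1 CPM and NEUROD1 and UCHL1 had 0 counts.

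Transcription factors of the liver and bile duct were mostly present, 25 of 32 (78.1%, against 59.8% of all protein-coding genes). NR5A2, a nuclear receptor of bile acid and cholesterol metabolism, gave 152, 135 and 166 CPM, the epithelial ETS factor EHF 143, 132 and 143 CPM, and its relative ELF3 83.2, 86.8 and 90.9 CPM. SOX4 averaged 96.2 ± 5.22 and CEBPB 55.9 ± 1.34 CPM. HNF4A, a factor of hepatocytes, gave 33.4, 39.2 and 35.5 CPM and was named after its value was seen. ONECUT1 was not detected (0.603 CPM), whereas its relative ONECUT2 averaged 43.0 ± 4.40 CPM. GRHL2, which sustains epithelial cadherin genes, had 0, 0 and 1 counts, OVOL1 averaged 0.0213 CPM and CDX2, an intestinal factor, 0.158 CPM. SOX17 and CDX1 had 0 counts. Per kilobase, EHF (31.7 CPM) and CEBPB (28.6 CPM) led this list and NR5A2 followed at 19.9 CPM, whereas by the longest transcript NR5A2 (29.6) passed CEBPB (28.6).

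Among nuclear receptors 32 of 48 were detected (66.7%, near the background of 59.8%). The glucocorticoid receptor NR3C1 gave 174, 138 and 174 CPM, lowest in si-Ctrl 2. ESRRA, which drives mitochondrial genes, averaged 104 ± 5.92, NR2F2 78.7 ± 1.79 and the oxysterol receptor NR1H2 66.3 ± 7.15 CPM. Of the bile acid and drug sensors, NR1H4 (FXR) averaged 4.71 ± 0.946 CPM and NR1I2 (PXR) had 0 counts. The progesterone receptor PGR had 0 counts, and ESR1 averaged 1.61 CPM.

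Receptor tyrosine kinases were led by EGFR, MET and AXL. The list held 32 of 58 detected genes (55.2%, near the background of 59.8%), and 5 had no count. EGFR gave 755, 689 and 745 CPM. MET, the receptor of hepatocyte growth factor, gave 657, 560.4 and 644 CPM. AXL, a receptor of GAS6, gave 473, 527 and 477 CPM. EPHA2 averaged 356 ± 28.3, FGFR1 215 ± 13.9 and FGFR4 129 ± 8.32 CPM. Per kilobase the order was AXL (95.6 ± 5.86 CPM), MET (88.2 ± 7.47), EPHA2 (85.6 ± 6.81) and EGFR (58.3 ± 2.83). It was the same by the longest transcript, but the SD ranges of the first 3 overlap. ERBB2 and ERBB3, partners of EGFR, averaged 51.2 and 19.8 CPM, and FGFR2, whose fusions occur in this cancer, 6.51 ± 0.585 CPM. KIT (0.922 CPM), RET (0.690 CPM) and ALK (0.168 CPM) were not detected. DDR1 had 0, 2 and 0 counts and lies in a stretch of chromosome 6 described below, where low counts are not read as silence.

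The same cultures held RNA of ligands for some of these receptors. Of 49 growth factor ligands 33 were detected (67.3%, near the background of 59.8%). The EGFR ligand TGFA gave 245, 216 and 239 CPM and EREG, another, gave 149, 113 and 157 CPM, lowest in si-Ctrl 2. HBEGF averaged 81.0 ± 1.43 CPM, and AREG 63.2 CPM (named after its value was seen), while EGF itself averaged 1.36 CPM. NRG1, a ligand of ERBB3, gave 175, 164 and 178 CPM and VEGFA 176, 169 and 172 CPM. CSF1, the growth factor of macrophages, averaged 101 ± 2.15 CPM. HGF, the ligand of MET, had 0 counts, as had IGF1 and ANGPT1. GAS6 averaged 64.5 CPM beside its receptor AXL. RNA levels alone say nothing of secretion or receptor activity.

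The TGF-beta and BMP list had 33 of 41 members detected (80.5%, against 59.8% of all protein-coding genes). SMAD3, which carries the TGF-beta signal to the nucleus, gave 593, 565 and 588 CPM, and the receptor TGFBR2 258, 220.4 and 246 CPM. SMAD2 averaged 138 ± 5.14, SMAD5 122 ± 14.7 and LTBP3, which stores latent TGF-beta in matrix, 185 ± 20.2 CPM. The ligands TGFB1 and TGFB2 averaged 98.6 and 96.5 CPM. The BMP antagonists GREM1 and CHRD were at 0 counts and 0.0922 CPM.

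In the WNT pathway 32 of 50 were detected (64.0%, near the background of 59.8%). LGR4, a receptor of R-spondins, gave 421, 314 and 423 CPM, lowest in si-Ctrl 2, whereas LGR5, the stem-cell member of the same family, averaged 0.0532 CPM. The co-receptors LRP5 and LRP6 averaged 205 ± 28.2 and 83.5 ± 6.25 CPM, and the frizzled receptors FZD2 and FZD6 94.6 ± 3.22 and 94.9 ± 10.4 CPM. Of the WNT ligands 7 of 19 were detected, with WNT7B at 54.0, 58.4 and 49.6 CPM far above the others. In the Notch list 12 of 20 were detected (60.0%, at the background). NOTCH2 gave 396, 405 and 399 CPM and its ligand JAG1 152, 145 and 158 CPM, a pair known from bile duct development. NOTCH1 averaged 85.3 ± 7.17 and JAG2 79.5 ± 6.57 CPM, NOTCH3 was not detected (0.743 CPM), and DLL1 had 0 counts. NOTCH4 also had 0 counts and lies in that stretch of chromosome 6.

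Of the receptors of cytokines and death ligands 36 of 50 were detected (72%, against 59.8% of all protein-coding genes). IL6ST, the signal chain shared by the cytokines of the LIF and OSM group, gave 628, 469 and 612 CPM, lowest in si-Ctrl 2. The death receptor TNFRSF10B gave 280.4, 270.4 and 275 CPM and TNFRSF10D, a decoy receptor for the same ligand, 112, 106 and 103 CPM. LTBR averaged 145 ± 11.1, TNFRSF1A 142 ± 6.26 and TNFRSF21 113 ± 2.07 CPM. Chains of the lymphocyte IL2 receptor (IL2RA, IL2RB, IL2RG) had at most 0.0213 CPM, and the endosomal TLR7, TLR8 and TLR9 had 0 counts.

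Integrins, which anchor cells to matrix, were abundant. The integrin list had 18 of 26 detected (69.2%, in so short a list near the background of 59.8%) and summed to 5657 ± 22.9 CPM. ITGA3 gave 2104, 2403 and 2099 CPM and ITGB1 1677, 1394 and 1651 CPM, chains that together bind laminins. si-Ctrl 2 was the highest library for ITGA3 and the lowest for ITGB1. ITGAV averaged 429.9 ± 70.7, ITGB5 241 ± 9.74 and ITGA5 227 ± 8.94 CPM. ITGA4 and ITGB7, which are used by lymphocytes, were at 0.0159 and 0.0426 CPM.

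Secreted matrix genes were led by components of basement membrane. Of the matrix list 37 of 43 were detected (86.0%, against 59.8% of all protein-coding genes). The proteoglycan agrin (AGRN) gave 803, 997 and 800.3 CPM, and perlecan (HSPG2) 534, 650.3 and 518 CPM. The laminin chain LAMA5 gave 585, 659 and 572 CPM, whereas LAMC1 averaged 531 ± 9.60 and LAMB1 506 ± 11.8 CPM. Agrin, perlecan and LAMA5 were highest in si-Ctrl 2, while LAMC1 and LAMB1 differed little. Thrombospondin (THBS1) averaged 381 ± 9.87 CPM. Of laminins as a family 10 of 12 were detected, and of collagens 20 of 44, led by COL7A1, the anchoring fibril collagen, with 296 CPM. The chains of fibrillar collagen COL3A1 and COL1A2 averaged 0.117 and 0.0213 CPM.

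Protease inhibitors and membrane proteases led the list of secreted proteases. In this list 25 of 47 were detected (53.2%, near the background of 59.8%). TIMP2 gave 671, 686 and 648 CPM, the plasminogen activator PLAU 338, 346 and 345 CPM and the membrane protease ADAM9 440.3, 416 and 434 CPM. ADAM10 averaged 158 ± 18.4 and SERPINH1, the collagen chaperone, 156 ± 11.2 CPM. Of matrix metalloproteinases 7 of 22 were detected, MMP7, the one made by epithelial cells, at 94.1 CPM, and MMP2 at 0.0319 CPM. Of 16 kallikreins none was detected (0 of 16).

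Cytokines were detected less often than the background, while hormones and growth factor binding proteins lay near it. Among secreted cytokines and chemokines 17 of 45 were detected (37.8%), and 13 had no count. TNFSF15 gave 168, 159 and 169 CPM and IL32 139, 188 and 150.2 CPM. LIF averaged 85.1 ± 3.36 CPM, the membrane chemokine CX3CL1 72.7 ± 4.28, CXCL8 35.1 ± 3.19 and IL18 34.2 ± 3.52 CPM. IL6, a cytokine to which cholangiocytes respond with growth, averaged 0.0213 CPM, and IL33 and CCL5 had 0 counts. TNF had 0 counts too, and lies in the stretch of chromosome 6 described below. In the list of hormones and growth factor binding proteins 15 of 24 were detected (62.5%, near the background of 59.8%). GDF15, a stress-induced hormone, gave 336, 378 and 362 CPM, IGFBP4 239, 284 and 249.9 CPM and stanniocalcin (STC1) 183, 182 and 183 CPM. IGFBP1 and IGFBP2 averaged 149 ± 12.8 and 142 ± 15.1 CPM.

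Of 30 genes that are often altered in this cancer 27 were detected (90.0%, against 59.8% of all protein-coding genes). CCND1, the cyclin of the G1 phase, gave 1329, 1355 and 1367 CPM, within 1.03-fold of one another. The survival factor MCL1 averaged 526 ± 27.1 CPM and the enzyme IDH1, a frequent site of mutation, 241 ± 21.5 CPM. The tumour suppressors ARID1A, BAP1 and SMAD4 lay between 70.5 and 108 CPM, named after their values were seen. RNA level does not show whether a gene is mutated, and no variant was read. The 3 that were not detected, CDKN2A, CDKN2B and MTAP, had 0 counts in every library.

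These 3 are neighbours on the short arm of chromosome 9. From MTAP to IZUMO3 (GRCh38, chromosome 9, 21802543 to 24545946) all 7 protein-coding genes had 0 counts, a stretch that was delimited after the values were seen. The list of 7 holds DMRTA1, ELAVL2 and ENSG00000264545, which overlaps MTAP, besides. On 1 side the nearest detected genes were KLHL9 with 31.8, 28.1 and 38.6 CPM and FOCAD with 34.6, 26.6 and 31.9 CPM, and between KLHL9 and MTAP lie type I interferon genes, all at 0. On the other side TUSC1 averaged 7.97 ± 0.969 and PLAA 32.6 ± 2.42 CPM. MTAP is a gene of broad expression, and DMRTA1, ELAVL2 and IZUMO3 are not. DNA was not measured, so loss of the DNA and silence of the genes cannot be told apart.

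Genes of antigen presentation were low, and most of them lie together on chromosome 6. In the list of immune ligands 16 of 30 were detected (53.3%, near the background of 59.8%). CD276, an inhibitory ligand, gave 189, 209 and 203 CPM, CD47, the signal against phagocytosis, 166, 133 and 157 CPM, and PVR and NECTIN2, ligands of receptors on natural killer and T cells, 126 ± 5.96 and 122 ± 7.48 CPM. B2M, the light chain of all class I molecules, gave 37.8, 26.7 and 37.0 CPM. Of the heavy chains, HLA-B averaged 0.833 ± 0.623 and HLA-C 2.57 ± 0.425 CPM, the peptide transporter gene TAP1 had 1, 1 and 0 counts, and TAPBP, which loads peptides, 2, 2 and 0 counts. CD274, the ligand of PD-1, averaged 4.85 ± 0.916 CPM. NLRC5, which activates class I genes, averaged 10.6 CPM.

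The HLA genes did not stand alone. From TRIM27 to ZBTB9 (GRCh38, chromosome 6, 28903002 to 33457548), which spans the major histocompatibility complex, 7 of 178 protein-coding genes were detected (3.93%, against 59.8% overall) and 107 had no count. Among the detected ones were TCF19, AGPAT1, CCHCR1, HLA-DRB1, HLA-C and TAP2, the highest at 4.88 CPM. Of the 806 list members described here, 20 lie in the stretch and 4 of these were detected. All 178 genes together summed to 38.5, 36.2 and 33.5 CPM. Among the low genes were some that every growing cell uses, which are named here after their values were seen. RPS18, a protein of the small ribosomal subunit, had 2, 5 and 2 counts, TUBB, a beta-tubulin, 9, 7 and 2, the chaperone factor BAG6 8, 21 and 0 and the bromodomain gene BRD2 4, 12 and 4. In the 3 Mb after ZBTB9, 26 of 43 were detected, among them BAK1 (57.4 CPM), ITPR3 (499.7 CPM) and HMGA1 (828 CPM). In the 3 Mb before TRIM27 it was 29 of 86. Low counts in this stretch are therefore not described as silence. How reads that fit several places of the reference were treated, and whether that reference held further versions of this region, is not given in the sources at hand, and the cause was not tested. The stretch was delimited after the values were seen.

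**Figure D4:**
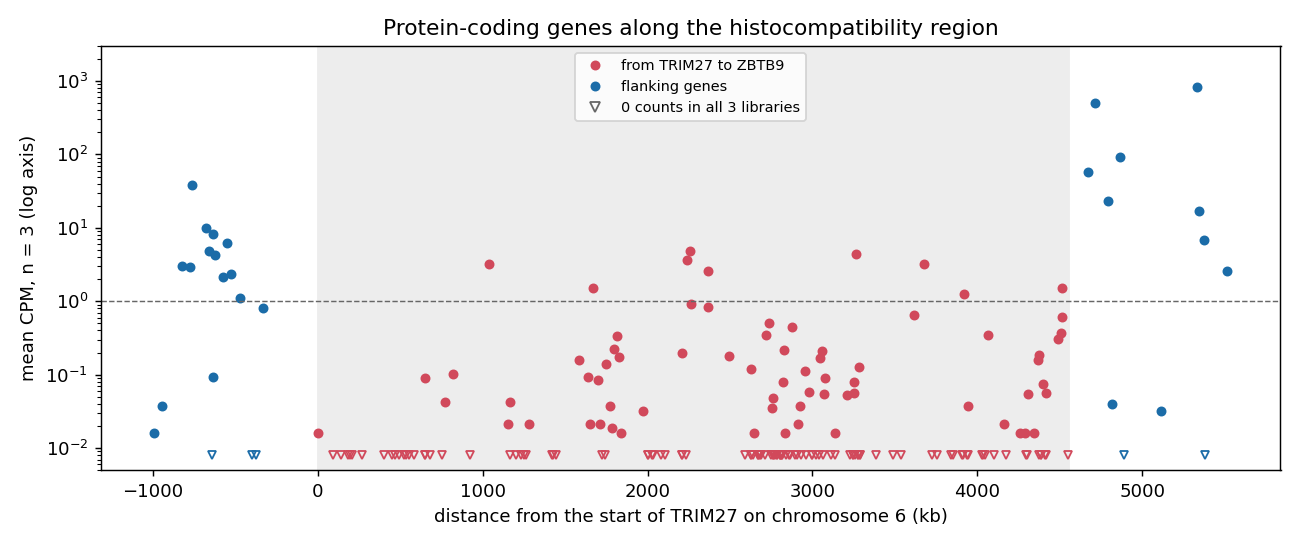
Mean CPM (log axis, n = 3) of protein-coding genes by distance in kb from the start of TRIM27 on chromosome 6. Red points lie in the stretch from TRIM27 to ZBTB9 (grey), blue points in the neighbouring 1000 kb on each side, and open triangles stand for 0 counts in all 3 libraries. No gene in the grey stretch passes 5 CPM, and on the right HMGA1, ITPR3, LEMD2 and BAK1 exceed 50 CPM.

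Some other low values call for the same reserve. Of 86 cytosolic ribosomal protein genes 79 were detected, together 4.22 ± 0.201% of counts, led by RPLP0 with 1826 CPM. RPS9 (0.640 CPM) and RPS10 (2.61 CPM), both parts of every small subunit, lay far below. Of 43 proteasome genes 38 were detected, PSMD2 at 580.0 CPM. PSMB3, a constitutive subunit, had 0 counts, and PSMA2 averaged 1.54 CPM. MIF, a cytokine that most cells make, had 0 counts. These genes were picked after their values were seen. Over all nuclear protein-coding genes, detection was lower where a transcript shares at least 50% of its 31-base words with others, and not below that. With under 1% shared, 59.1% of 8614 genes were detected, with 1 to 10% shared 70.2% of 5630 and with 10 to 50% shared 64.3% of 3697. With 50 to 90% shared it was 32.3% of 1113, and from 90% 8.65% of 763. Its part in single values was not tested.

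Several large gene families gave almost no counts. Of 389 olfactory receptors 349 had no count and 1, OR4C6, was detected (1.92 CPM). No member was detected among 94 keratin-associated proteins of hair, 39 beta-defensins, 24 bitter taste receptors, 203 immunoglobulin segments or 195 T cell receptor segments. The 26 USP17-like genes and the 32 GAGE, PAGE, XAGE and SSX genes of the testis and of some tumours had 0 counts throughout. In the MAGE family 0 of 26 were detected. Many families of this kind are made of near-identical copies, for which the reserve above holds.

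HOX genes, which set position along the body axis, were mostly low, with 4 of 39 detected and 16 with no count. HOXB3 gave 12, 11 and 11.6 CPM, HOXB6 5.37, 6.31 and 6.64 CPM and HOXB5 1.79, 2.44 and 2.17 CPM. HOXA5 averaged 1.49 ± 0.0761 CPM. The detected genes thus lay in the A and B clusters, and no HOXC or HOXD gene passed 0.156 CPM. Other families with a few members on were the ionotropic glutamate receptors (6 of 18), the GABA-A receptors (1 of 19, GABRE at 38.7 CPM) and the potassium channels (34 of 95, KCNMA1 at 79.8 CPM). Of cytochrome P450 genes of families 1 to 4 12 of 35 were detected, led by CYP1B1 at 121 CPM. Against the 59.8% of all protein-coding genes, 80.5% of the zinc finger genes named ZNF (417 of 518) and 79.4% of the RAB GTPases (50 of 63) were detected. Solute carriers, at 56.1% (206 of 367), were close to that background.

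Non-coding RNA was a small part. Genes of long non-coding types held 0.947 ± 0.0601% of counts and pseudogenes 0.480 ± 0.0598%. NORAD, which binds PUMILIO proteins, gave 474, 424 and 508 CPM, SNHG29 333, 361 and 358 CPM and NEAT1, the scaffold of paraspeckles, 312, 283 and 308 CPM. These 3 were named after their values were seen. Of 17 RNAs without a poly(A) tail, such as small nuclear RNAs, 1 was detected. This was RN7SL1, an RNA of the signal recognition particle, and it differed between libraries at 84.6, 231 and 134 CPM, highest in si-Ctrl 2. RN7SK, RPPH1 and VTRNA1-1 had 0 counts. Of the shared words counted above, RN7SK, RPPH1 and the detected RN7SL1 have 100%, and VTRNA1-1 has 8.70%. The reserve stated for near-identical copies therefore holds for RN7SK, RPPH1 and RN7SL1 as well, and its part in these values was not tested. Replication-dependent histone genes, whose mRNAs also lack the tail, were detected in 8 of 65 cases, with H2BC12 the highest at 18.8, 22.4 and 18.8 CPM.

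The 3 libraries were not equally alike. Over the 10809 genes with a mean of at least 5 CPM, the median gene differed 1.05-fold between si-Ctrl 1 and 3, 1.13-fold between 1 and 2 and 1.12-fold between 2 and 3. The biological coefficient of variation, edgeR's estimate of spread beyond counting error, was 9.80% over all 3 and 3.51% without si-Ctrl 2. In genes of 100 to 1000 CPM the median coefficient of variation over the 3 libraries was 6.47%, against 1.84% from counting alone. Between si-Ctrl 1 and 3 it was 1.89%, but a median taken over pairs of values runs low. In genes of 5 to 10 CPM this pair gave 7.84%, less than the 8.78% from counting alone. The 1.89% therefore does not show that si-Ctrl 1 and 3 differed by counting error only, and the 3.51% is their spread beyond it. A ratio of at least 1.5 between the highest and lowest library was found in 393 of 10809 genes (3.64%). The lowest library was si-Ctrl 2 in 272 of them (69.2%), against 5682 of all 10809 genes (52.6%). Without that library 62 genes passed. Of the list members described above, 7 of 359 with a mean of at least 5 CPM passed, namely RN7SL1, TJP1, PDGFD, FZD8, SERPINA1, LRAT and CLDN23.

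The difference of si-Ctrl 2 moved with GC content and, less, with transcript length. In the quartile of protein-coding genes with the lowest GC, its median log2 ratio to the mean of the other two was -0.29, and in the quartiles above -0.15, 0.01 and 0.15. For si-Ctrl 1 the same medians were 0.15, 0.07, -0.01 and -0.09, and for si-Ctrl 3 0.13, 0.07, -0.01 and -0.07. Each ratio contains the other libraries, so the opposite slopes of si-Ctrl 1 and 3 follow in part from that of si-Ctrl 2. Spearman's rho between GC content and the ratio of si-Ctrl 2, across 10303 genes that share these libraries, was 0.775, as a description. By length of the longest transcript, the medians of si-Ctrl 2 were 0.03, -0.05, -0.09 and -0.14 from the shortest to the longest quartile, with a rho of -0.253. Protein-coding genes past the ratio of 1.5 had a median GC of 38.4% where si-Ctrl 2 was lowest (236 genes) and 59.1% where it was highest (54), against 47.6% of all. The transcripts of FLNA (62.2% GC) and AGRN (67.5%), high in si-Ctrl 2, and of LGR4 (42.1%) and IL6ST (36.6%), low in it, lie on these sides. They were picked as examples after their values were seen. Not every gene followed, as SERPINA1 (54.0% GC) was lowest in si-Ctrl 2. The part of GC content or length in single values was not tested.

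**Figure D5:**
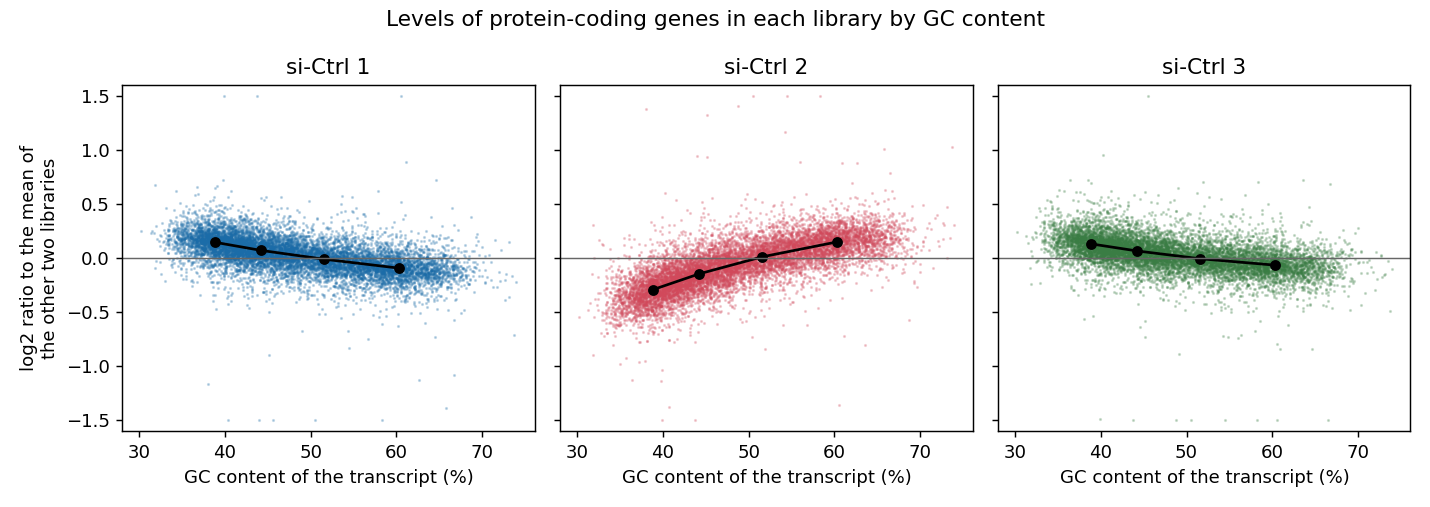
Log2 ratio of each library to the mean of the other two against the GC content of the longest transcript in percent, for protein-coding genes with a mean of at least 5 CPM. Small points are genes, with ratios beyond 1.5 drawn at 1.5, and black points are medians of quartiles of GC content. The medians of si-Ctrl 2 climb from -0.29 to 0.15, while those of si-Ctrl 1 and 3 descend.

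A few genes differed much more. RNH1, the inhibitor of ribonucleases, gave 3.64, 22.5 and 1.09 CPM, a ratio of 20.7. INTS3, of the Integrator complex, gave 1.53, 12.7 and 0.858 CPM (14.8-fold), and EEF1D, an exchange factor of EEF1A1, 41.7, 8.70 and 3.20 CPM (13.0-fold). The first pair was high in si-Ctrl 2 alone, and EEF1D in si-Ctrl 1. EIF3CL gave 13.2, 42.0 and 5.09 CPM and shares 65.5% of its 31-base words with other transcripts. YTHDC1, a reader of methylated adenosine, gave 1.73, 10.1 and 11.5 CPM and PTPRK 2.43, 15 and 13.1 CPM, both low in si-Ctrl 1. SYNRG, ACACA and the gene ENSG00000275895 had the next largest ratios, at 5.07 to 5.41. The 3 libraries gave no common level for these genes. Without its highest library, RNH1 fell from 9.07 to 2.37 CPM and EEF1D from 17.9 to 5.95 CPM. At the even end, MYL12A, a light chain of myosin, gave 227, 227 and 227 CPM, and PRPS1, RTKN, HM13 and KLHL36 had ratios that round to 1.00.

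NAT10 and the knockdown target of the series stood at middle levels in these controls. NAT10, which places acetyl groups on cytidine in RNA, gave 82.4, 84.3 and 79.3 CPM, and its tRNA adaptor THUMPD1 64.6, 50.7 and 63.0 CPM. CHAF1A, the large subunit of the chromatin assembly factor that places histones on new DNA, gave 51.5, 56.6 and 50.9 CPM. Of its partners, CHAF1B gave 27.4, 26.3 and 26.8 CPM and RBBP4, which binds histones, 125, 108 and 124 CPM. Per kilobase CHAF1A stood at 12.3, RBBP4 at 12.6, CHAF1B at 5.25 and NAT10 at 15.6 CPM. By the longest transcript CHAF1A (15.9) passed RBBP4 (15), so these neighbours in the order are not separated.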

How the data were processed

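Of 6 RNA libraries of RBE cells, sequenced with paired reads of 150 bp, only the 3 si-Ctrl columns of the deposited table were read. The values are gene-level read counts, deposited by the authors as whole numbers without normalisation. Per the submitters' processing notes, the tools were fastp 0.20.1, HISAT2 2.1.0, SAMtools 1.9, featureCounts 2.0.1 and StringTie 2.1.4 on hg38, with no settings. Which annotation release and strand setting were used, and how multi-mapping reads were counted, is not given in the sources used here, so overlapping, antisense and near-identical genes are uncertain. The columns are named NC, read here as negative control, and columns of samples outside the series numbered 0.

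CPM were computed from library totals, with symbols for 62665 identifiers and positions, types and lengths for 58173 from GENCODE 29 (GRCh38). Spread was estimated with edgeR 4.0.16 (TMM scaling, filterByExpr, intercept only) in R 4.3.3 and tested on simulated data, with DESeq2 1.42.0 size factors as an alternative. Shared words are those of the longest transcript found in transcripts of other genes. The libraries were no duplicates of one another, with a chi-square per degree of freedom from 2.30 to 13.7. Limits from 0 counts cover counting error only, since reads carried no molecular identifiers that the sources name.

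The members and the 31 gene lists and 46 families were chosen with earlier results of these data known. The name patterns of 5 families (cancer-testis, S100, glutamate receptors, microRNA, proteasome) were corrected after the data were seen, because they took unrelated genes. Named genes are the 25 of highest CPM and per kilobase, the 6 highest of each list and those whose role makes a level near 0 part of the description, the highest of each family, and the 10 least and 5 most even genes. Other genes were named for their role after the values were seen, as marked or, within a list, as examples. Promoter sequences are RefSeq's, on GRCh38.p14. Transposable elements were not analysed here, and some genes that the rule names are not reported here.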

Additional observations from a re-analysis of the deposited data

How the results depend on the processing

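No paired analysis was possible because the description covers 1 group and rests on no test. The number of detected genes stayed within 1.5 times of 13429 under every alternative run, including thresholds of 0.5 CPM (14867) and of 10 counts, TMM scaling and DESeq2 size factors. Leaving out each replicate in turn gave 13610.0 to 13660.0 genes. Without mitochondrial genes in the total, the 100 most abundant genes held 17.0% of counts. The biological coefficient of variation ran from 3.51% to 11.6% when a replicate was left out, the lowest without si-Ctrl 2. Genes past a ratio of 1.5 numbered 1825 of 14064 at a mean of 1 CPM and 97 of 7440 at 20 CPM, where counting error differs, and 62 to 254 with 1 replicate left out. TMM scaling gave 314 and DESeq2 size factors 322. Counts of detected members for the 77 lists and families moved past 1.5 times in 8 at 0.5 CPM and in none (0) with TMM scaling. Alternatives chosen after seeing the data were the same counts with a replicate left out (up to 2 moved) and promoter features under TMM scaling and with a replicate left out, where the median CpG ratio of genes not detected lay between 0.358 and 0.361. Depth limits genes near 0, where 3 counts in a library stand for 0.143 to 0.192 CPM.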
